A study of Mus musculus with 15 samples.

Results

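RefSeq noncoding RNAs were followed in cultured mouse macrophages that lacked or carried Junb, which pairs with Fos and related proteins to form AP-1 transcription factors, with and without bacterial lipopolysaccharide (LPS). The members were chosen from measured values. A probe qualified when its design accession was a noncoding RefSeq transcript, when its spot was well above the local background on all 15 arrays and when its gene lay on neither X nor Y. Of 55681 probes, 771 carry such an accession, and 298 of those were well above background on every array. A RefSeq gene table gave no symbol for 35 of them and placed 13 on X or Y, and the other 250 probes stand for 211 genes, of 20145 genes named on the array. For each gene the probe with the highest mean was taken. At the edge of the rule, the 250 probes measured on all 15 arrays had a median level of -0.28, and the 21 probes that missed it by 1 array had a median of -2.81 and a range from -3.96 to -0.15. Levels throughout are log2 of the background-subtracted signal over the 75th percentile of its array, so each unit is a factor of 2. They are comparable between arrays for 1 probe and not between probes.

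Bone marrow was differentiated with macrophage colony-stimulating factor. Knockout cells had the genotype Junb-fl/fl Lyz2-Cre+/+ on a C57BL/6 background, in which Cre is expressed from both copies of the lysozyme locus Lyz2, and wild type cells were C57BL/6. There were 3 LPS-treated and 4 untreated knockout arrays, and 4 LPS-treated and 4 untreated wild type arrays. LPS was given at 100 ng/ml for 4 h, and untreated cells were mock-treated. The labels call the replicates independent wells and name no animals, so p-values measure the spread between wells, which may be technical. Knockout and wild type cells differ in Junb, in Cre and in Lyz2 itself. They also differ in sex-linked genes. The Y-linked Ddx3y and Eif2s3y were well above background on all knockout and no wild type arrays. The X-linked noncoding RNA Xist was so on no knockout and all wild type arrays. The Y-linked Uty passed on all knockout arrays but also on 3 of 4 in each wild type group. Its signals were 207.7 to 1347 in knockout and 14.61 to 122.7 in wild type cells. Y-linked Kdm5d did not separate the genotypes. It passed on all knockout arrays, on 4 of 4 untreated and on 1 of 4 LPS-treated wild type arrays. Knockout and wild type RNA were hybridised on separate slides, so in comparisons of genotypes the effects of Junb, Cre, Lyz2, sex and slide cannot be told apart. Within each slide, untreated and LPS-treated samples lay in different columns, and column and treatment cannot be told apart.

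Noncoding RNAs fall into types that are made and used in different ways. Small RNA host genes are transcribed as long, spliced RNAs whose introns or stem-loops are cut into small nucleolar RNAs, which guide the modification of ribosomal RNA, or into microRNAs, which repress messenger RNAs. Structural RNAs are working parts of the spliceosome, the ribosome or processing enzymes. Long noncoding RNAs such as Neat1 and Malat1 act in the nucleus, some antisense RNAs are read from the opposite strand of a coding gene, and transcribed pseudogenes resemble a coding parent. In macrophages, LPS signals through Toll-like receptor 4 to NF-kB, AP-1 and interferon regulatory factors, and long RNAs are known among its targets. The RNA was amplified with a kit that primes at poly(A) tails, so RNAs without a tail were measured only as far as they were primed, and the small RNAs themselves were not measured.

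By RefSeq type, symbol and the small RNA genes inside each gene's interval, the 211 genes comprise 69 pseudogenes, 19 small RNA hosts, 8 structural RNAs, 13 antisense or opposite-strand RNAs, 99 other long RNAs and 3 genes that RefSeq now lists as coding (Zfp672, Tmem80 and Prmt6). A gene counts as a host here when it is listed as one or when a small RNA gene lies in its interval on either strand. Dubr and E130112N10Rik lie on the opposite strand from the microRNA gene in their interval and so are not its precursor; the strands of the small nucleolar RNA genes were not compared. Of the long RNAs and hosts, 12 are known by function: Morrbid, Tug1, Neat1, Malat1, Norad, Airn, Peg13, Kcnq1ot1, Mexis, Pvt1, Dancr and 2410006H16Rik.

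Array quality bears on these genes as follows. Junb itself had processed signals of -0.395 to 4.15 on knockout arrays, where it was never well above background, and of 1291 to 9574 on wild type arrays. All 7 macrophage markers with a probe (Csf1r, Adgre1, Itgam, Fcgr1, Mertk, Cd14 and Lyz2) were well above background on every array, although Lyz2, which carries Cre in the knockout, had signals of 868.7 to 3793 on knockout and 345900 to 448200 on wild type arrays. Of the defining markers of other blood cells, the T cell genes Cd3g and Cd8a, the B cell gene Pax5 and the neutrophil gene Mpo were well above background on no array, whereas Cd3e, Cd79a and S100a8 were on all. The summed signal of 5 neutrophil markers was 10050 to 13600 with LPS against 3766 to 9705 untreated in knockout cells, and 22980 to 57990 against 7310 to 9188 in wild type cells. Most of that sum was S100a8, with 7718 to 9710 against 3032 to 7957 in knockout and 20120 to 49430 against 5752 to 7485 in wild type cells. Elane went the other way, with 232.7 to 361.5 against 289.2 to 768.7 in knockout and 251.5 to 450.7 against 412.2 to 541.2 in wild type cells. The sum of 5 B cell markers moved the other way, with 220.7 to 304.4 against 378 to 1024 in knockout and 181.1 to 283.1 against 571.8 to 863.2 in wild type cells. The part of other cells in the LPS responses was not tested, and fewer cells of a type and less RNA per cell cannot be told apart here. Around its group mean, a probe well above background on every array deviated with an SD of 0.24 to 0.59 depending on the array, the largest being untreated knockout replicate 3, untreated wild type replicate 1 and LPS-treated wild type replicate 4.

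LPS changed about as large a share of these genes as of probes at large. In knockout cells 64 of the 211 genes rose and 48 fell (53.1%), against 51.9% of all 32490 probes tested (31.2% higher, 20.7% lower) and 55.2% of probes well above background on every array. In wild type cells 59 rose and 58 fell (55.5%), against 53.6% (33.9% higher, 19.7% lower) and 58.2%. A change was called at an adjusted p under 0.05 from limma with Benjamini-Hochberg adjustment over all tested probes. The median log2 response of the genes was 0.31 in knockout and 0.09 in wild type cells, beside 0.31 and 0.19 for all tested probes. The split into rises and falls depended on scaling: rises made up 57.1% of the calls in knockout and 50.4% in wild type cells, but 43.8% and 36.8% after quantile normalisation, 44% and 40.7% after normexp and quantile normalisation, and 36.4% and 40.7% in the authors' deposited values. Quantile normalisation moved the median response of all probes to 0.05 in knockout and -0.03 in wild type cells.

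The responses of the genotypes ran together. Of the genes, 44 rose in both, which is 68.8% of the rises in knockout and 74.6% of those in wild type cells, and 42 fell in both, which is 87.5% and 72.4% of the falls. A change was called in knockout cells alone for 24 genes and in wild type cells alone for 29, which by itself shows no difference between the genotypes. Across the 211 genes both responses, which share no array, correlated with Pearson 0.843 and Spearman 0.77, as a description across genes measured on the same arrays. The joint counts and correlations were not computed over all tested probes, so they are not shown to be particular to these genes. The LPS-treated and untreated values did not overlap for 131 genes in knockout cells (62.1%, against 62.4% of probes well above background on every array) and for 104 in wild type cells (49.3%, against 50.7%).

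**Figure D1:**
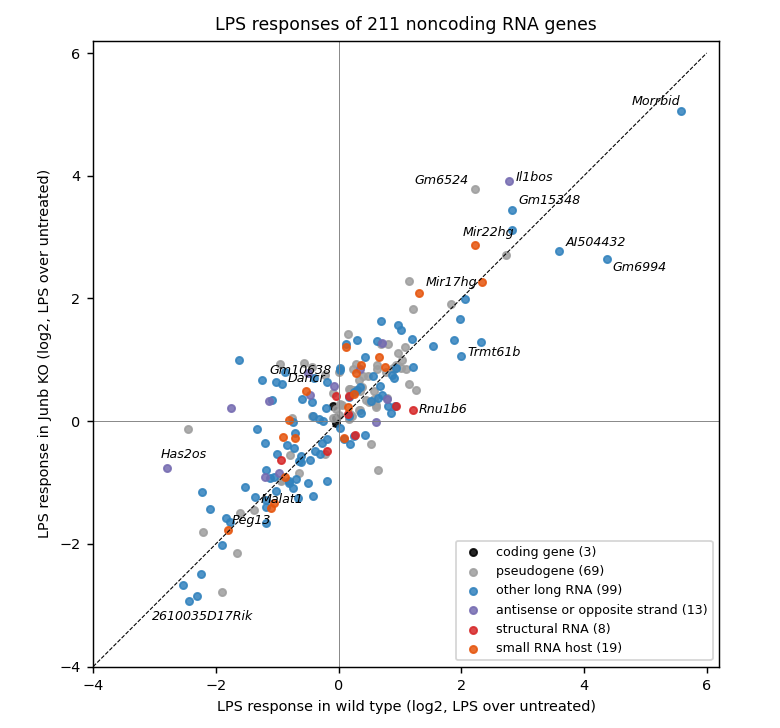
LPS response of each of the 211 genes in knockout cells (vertical axis) against wild type cells (horizontal axis), both as log2 of LPS over untreated, coloured by RNA type with the number of genes in brackets. The dashed line marks equal responses; most genes lie near it, Morrbid stands highest at 5.58 in wild type and 5.06 in knockout cells, and Gm10638 and Dancr lie above 0 in knockout and below 0 in wild type cells.

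Among long RNAs the most raised was Morrbid, a myeloid RNA known in mice for restraining the pro-death gene Bcl2l11 in short-lived blood cells. Its levels were 2.32, 2.22 and 2.26 with LPS against -2.40, -2.88, -2.52 and -3.38 untreated in knockout cells, and 2.74, 2.27, 2.69 and 2.16 against -3.80, -2.65, -3.1 and -2.90 in wild type cells. The groups lay far apart in both genotypes and the genotypes overlapped under each condition. The log2 response was 5.06 ± 0.28 (SE, n = 3 and 4, limma adjusted p = 3.84e-09) in knockout and 5.58 ± 0.25 (n = 4 and 4, adjusted p = 5.18e-10) in wild type cells. The difference of these responses, -0.52 ± 0.38, did not pass the test (adjusted p = 0.464). Over the 15 arrays, the levels of the long RNA Dubr (Pearson 0.986), the pseudogene Tyms-ps (0.98) and the long RNA 6820431F20Rik (0.976) followed Morrbid most closely.

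Other long RNAs rose strongly. Gm15348 had levels of 4.13, 3.83 and 3.81 with LPS against 0.66, 0.46, 0.50 and 0.34 untreated in knockout cells, and 4.07, 4.0, 3.63 and 3.47 against 0.84, 0.55, 0.72 and 1.73 in wild type cells, a log2 response of 3.43 ± 0.24 in knockout and 2.83 ± 0.23 in wild type cells. Gm12216 gave 1.07, 0.72 and 0.73 against -2.80, -2.12, -1.38 and -2.83 in knockout and 1.37, 0.97, 1.14 and 1.13 against -0.26, -2.60, -2.58 and -1.23 in wild type cells. Its untreated values spread widely in both genotypes, yet all lay below all LPS values, and the responses were 3.12 ± 0.50 and 2.82 ± 0.46. AI504432 rose by 2.78 ± 0.36 in knockout and 3.60 ± 0.33 in wild type cells. Gm6994 rose by 2.64 ± 0.82 and 4.37 ± 0.76, with large errors: its wild type levels were 7.15, 7.47, 6.78 and 4.35 with LPS and -0.44, 3.07, 2.76 and 2.89 untreated, so that replicate 4 with LPS and replicate 1 untreated stood well below their groups. Gm6994 in knockout cells missed the threshold in 1 of 27 alternatives (adjusted p = 0.0546).

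The promoters of these risers were read for the letters that AP-1, NF-kB and interferon factors bind, because AP-1 is the complex that lacks Junb in the knockout. RefSeq promoters (assembly GRCm38.p6, 250 bases before to 50 after the start) were matched for 105 of the 211 genes, with 118 promoters. The AP-1 letters TGANTCA, on either strand, occurred in 4.24% of those and in 7.81% of all 32817 promoters of that length. The other motifs searched were NF-kB (GGG, any 2 bases, TTTCC; 2.54% against 1.63%), the interferon element (GAAA, any 2 bases, GAAA; 3.39% against 3.43%) and the E-box CACGTG (5.93% against 7.15%). Of the 22 genes with a promoter that rose in both genotypes, 2 held the AP-1 letters, Morrbid and Gm12216. They are shown since both rose also in cells without Junb. Capitals mark the motif: for Morrbid (chr2:128429302-128429601, minus strand) the AP-1 letters from position -1 across the start, and for Gm12216 (chr11:53859207-53859506, minus strand) the AP-1 letters from -181 and the interferon element, on the other strand, from 3.
Morrbid: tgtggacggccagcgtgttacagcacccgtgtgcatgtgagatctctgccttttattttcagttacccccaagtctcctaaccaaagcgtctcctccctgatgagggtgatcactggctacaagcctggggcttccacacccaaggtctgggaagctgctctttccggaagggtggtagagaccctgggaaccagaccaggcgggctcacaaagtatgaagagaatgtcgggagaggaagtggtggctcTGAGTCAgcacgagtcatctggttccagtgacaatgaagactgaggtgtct
Gm12216: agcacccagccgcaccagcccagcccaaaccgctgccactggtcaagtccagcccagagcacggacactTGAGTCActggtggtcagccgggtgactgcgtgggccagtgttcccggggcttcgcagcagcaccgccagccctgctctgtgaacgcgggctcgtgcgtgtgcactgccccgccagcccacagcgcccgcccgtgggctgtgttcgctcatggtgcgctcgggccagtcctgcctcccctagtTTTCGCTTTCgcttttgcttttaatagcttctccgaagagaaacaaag
None of the 24 genes with a promoter that fell in both genotypes held the AP-1 letters in this window. A match is a description of the letters and not a measured binding site.

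The largest falls among the other long RNAs were of transcripts known by clone names. 2610035D17Rik stood at -2.95, -3.14 and -2.95 with LPS against 0.07, -0.06, -0.23 and -0.08 untreated in knockout cells, and at -3.28, -3.33, -2.92 and -3.44 against -0.92, -1.07, -0.86 and -0.34 in wild type cells. The groups did not overlap in either genotype, and the fall was -2.94 ± 0.17 in knockout and -2.44 ± 0.16 in wild type cells (limma adjusted p = 6.92e-09 and 1.61e-08). 5031434O11Rik fell by 2.85 ± 0.22 and 2.3 ± 0.20 on the log2 scale, and 4933439C10Rik by 2.68 ± 0.21 and 2.54 ± 0.20. Gm14403 gave -0.83, -1.05 and -0.87 against 1.70, 1.63, 1.54 and 1.41 in knockout and -1.07, -1.10, -0.96 and -0.61 against 1.21, 1.29, 1.20 and 1.54 in wild type cells, with log2 responses of -2.49 ± 0.14 and -2.24 ± 0.13; in the authors' deposited values its fall in knockout cells missed the threshold (adjusted p = 0.12).

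Of the 12 long RNAs known by function, 3 rose and 8 fell in knockout cells, and 2 rose and 9 fell in wild type cells, where the falls include Norad in knockout and Airn in wild type cells, whose direction depends on the probe. Calls were made for 91.7% of the 12 in each genotype, against 51.9% of all tested probes in knockout and 53.6% in wild type cells, and falls for 66.7% and 75%, against 20.7% and 19.7%. The median log2 response was -0.95 in knockout and -0.68 in wild type cells, beside 0.31 and 0.19 for all tested probes. The 12 were listed with earlier results of these data known, so these shares and medians describe the list and test nothing. Malat1, an RNA of nuclear speckles, had levels of 2.90, 2.72 and 2.82 with LPS against 4.02, 4.09, 4.17 and 3.88 untreated in knockout cells, and 2.77, 2.69, 2.75 and 1.92 against 3.69, 3.95, 3.83 and 4.14 in wild type cells. It fell by 1.23 ± 0.19 in knockout and 1.37 ± 0.17 in wild type cells, with no overlap between groups. Neat1, the scaffold of paraspeckles, stood at 6.57, 6.69 and 6.52 against 7.52, 6.98, 7.18 and 7.37 in knockout and 7.0, 7.01, 6.84 and 6.75 against 7.35, 7.55, 7.60 and 7.56 in wild type cells. Its smaller fall of 0.67 ± 0.13 and 0.62 ± 0.12 also kept the groups apart (limma adjusted p = 0.000745 and 0.00069). Tug1, a widely expressed long RNA, rose instead, with 3.44, 3.17 and 3.37 against 2.0, 2.19, 1.97 and 1.77 in knockout and 3.1, 3.06, 3.20 and 2.81 against 1.71, 1.80, 1.86 and 1.97 in wild type cells (log2 response 1.34 ± 0.13 and 1.20 ± 0.12).

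Peg13, Kcnq1ot1 and Airn are imprinted RNAs, read from 1 parental copy. Peg13, which lies in the Trappc9 locus, had levels of 0.96, 0.90 and 0.75 with LPS against 2.3, 2.59, 2.54 and 2.35 untreated in knockout cells, and -0.15, -0.27, -0.07 and -0.55 against 1.30, 1.49, 1.5 and 2.05 in wild type cells, a fall of 1.58 ± 0.17 and 1.84 ± 0.16. Kcnq1ot1, the antisense RNA of the Kcnq1 domain, fell by 1.66 ± 0.43 in knockout and 1.18 ± 0.40 in wild type cells; the second call failed in 6 of 27 alternatives (highest adjusted p = 0.0758), and LPS-treated wild type replicate 4 stood at -1.53 against -3.64 to -3.33 on the other arrays of its group. Airn, the antisense RNA that silences Igf2r, fell in wild type cells (-0.75 ± 0.18), while its knockout value was -0.01 ± 0.20 and the difference of responses did not pass (0.73 ± 0.27, adjusted p = 0.132). The mean of its 2 qualifying probes gave 0.11 in place of the fall, so the direction of Airn depends on the probe. Norad, which binds Pumilio proteins, fell by 0.37 ± 0.13 in knockout cells, but the mean of its 4 probes gave a rise of 0.51, so its direction depends on the probe too.

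Mexis, an RNA known in mouse macrophages for helping liver X receptors to induce the cholesterol transporter Abca1, had levels of -0.83, -0.56 and -1.07 with LPS against 0.70, 0.50, 0.72 and 0.54 untreated in knockout cells, and -1.93, -2.27, -1.80 and -2.52 against -0.68, 0.31, 0.43 and -0.18 in wild type cells. It fell by 1.44 ± 0.25 and 2.10 ± 0.23 on the log2 scale, while Abca1, its neighbour, gave -0.23 and 0.04 with neither call made. Pvt1, a neighbour of Myc, fell by 1.22 ± 0.14 in knockout and 0.42 ± 0.13 in wild type cells, while Myc rose by 2.42 and 1.85.

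**Figure D2:**
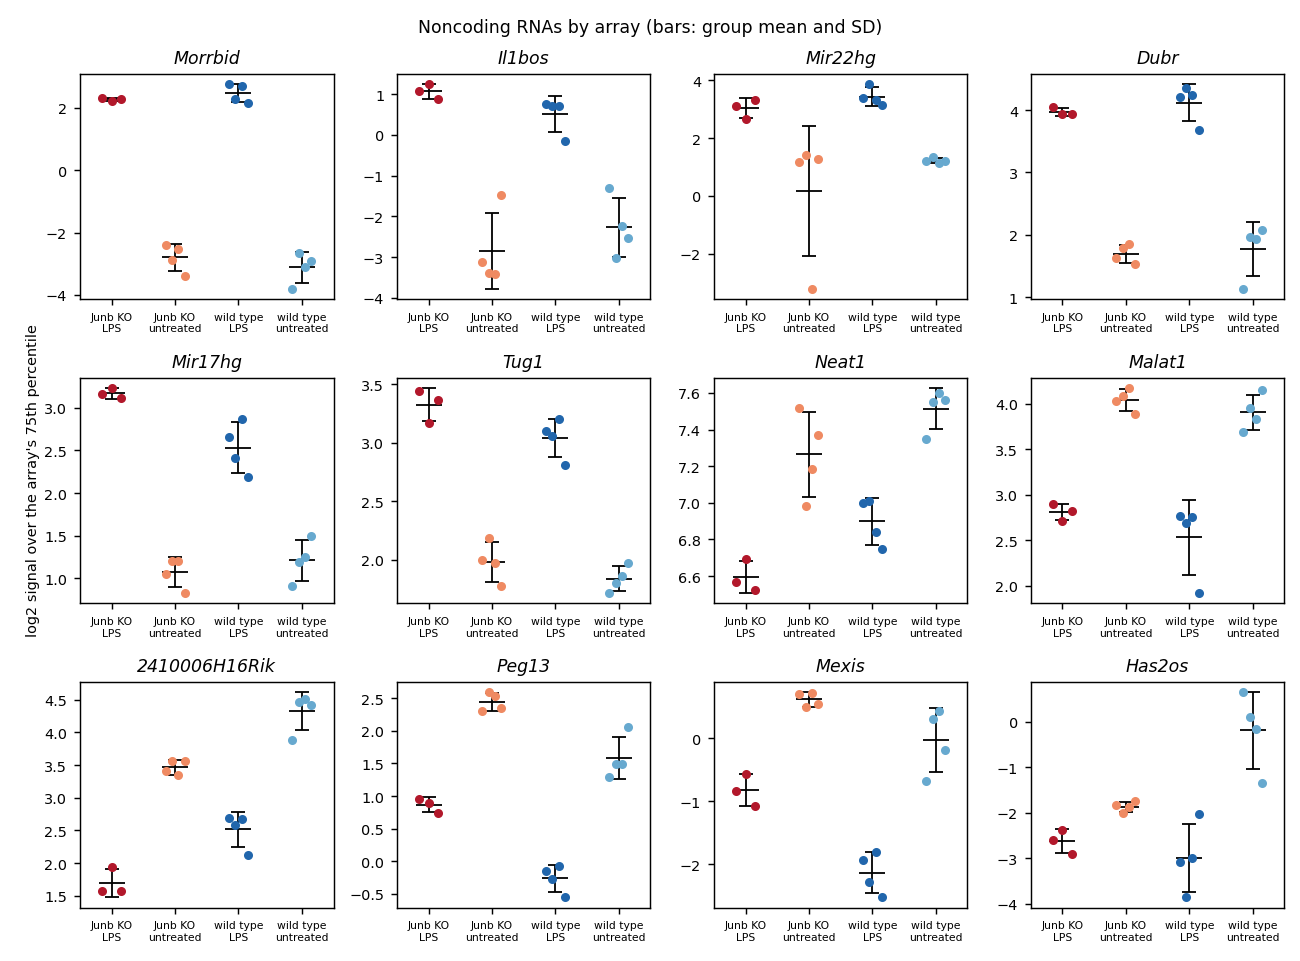
Levels (log2 signal over the array's 75th percentile) of 12 noncoding RNAs on each array, in LPS-treated and untreated knockout cells and LPS-treated and untreated wild type cells; points are arrays, bars the group mean and SD, and each panel has its own vertical scale. Morrbid, Dubr, Mir17hg and Tug1 are higher with LPS in both genotypes, Malat1, 2410006H16Rik, Peg13 and Mexis are lower, and 1 untreated knockout array of Mir22hg lies at -3.22.

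The microRNA hosts Mir17hg and Mir22hg rose with LPS and Dleu2 fell. Mir17hg gives rise to the miR-17 to miR-92a cluster, which is known to drive proliferation, Mir22hg to miR-22, and Dleu2 to miR-15a and miR-16-1, which restrain the cell cycle. For these 3 hosts, 1 mature product of each microRNA gene other than that of miR-15a is shown, from RefSeq (GRCm38.p6). Further mature products of the same genes are left out. Sequences run 5′ to 3′ with the seed, bases 2 to 8, in capitals, because the seed decides which messenger RNAs a microRNA can pair with. The gene table places miR-92a-1 inside the Mir17hg interval, and the others of the cluster lie within 1000 bases of one another on the same strand. The mature microRNAs were not measured on these arrays.
miR-17-5p (chr14:115043684-115043706, plus strand): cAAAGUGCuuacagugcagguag
miR-20a-5p (chr14:115044183-115044205, plus strand): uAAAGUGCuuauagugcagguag
miR-18a-5p (chr14:115043867-115043889, plus strand): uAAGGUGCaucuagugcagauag
miR-19a-3p (chr14:115044048-115044070, plus strand): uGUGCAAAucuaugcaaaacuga
miR-19b-3p (chr14:115044358-115044380, plus strand): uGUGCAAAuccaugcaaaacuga
miR-92a-3p (chr14:115044476-115044496, plus strand): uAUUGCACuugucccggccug
miR-22-3p (chr11:75463772-75463793, plus strand): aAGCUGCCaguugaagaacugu
miR-16-5p (chr14:61631936-61631957, minus strand): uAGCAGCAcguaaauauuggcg
miR-17-5p and miR-20a-5p share 1 seed, and miR-19a-3p and miR-19b-3p share another.

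Mir17hg had levels of 3.16, 3.23 and 3.11 with LPS against 1.06, 1.21, 1.20 and 0.83 untreated in knockout cells, and 2.66, 2.41, 2.87 and 2.18 against 0.91, 1.19, 1.25 and 1.5 in wild type cells. Every LPS-treated array lay above every untreated one, with log2 responses of 2.09 ± 0.17 and 1.32 ± 0.16. The larger rise in knockout cells did not pass as a difference of responses (0.78 ± 0.23, limma adjusted p = 0.0704). Mir22hg gave 3.1, 2.66 and 3.34 against 1.17, 1.40, -3.22 and 1.28 in knockout and 3.40, 3.88, 3.32 and 3.14 against 1.19, 1.34, 1.15 and 1.20 in wild type cells. Untreated knockout replicate 3 lay far below the rest of its group, and the log2 responses of 2.87 ± 0.84 and 2.22 ± 0.78 carry large errors, pooled over all groups. The wild type call failed in 7 of 26 alternatives. The same array gave a processed signal of 3415 for the macrophage receptor gene Csf1r, against 221700 to 381700 on the other 14, so single low probes occurred on it outside this gene set as well. Dleu2 stood at 0.20, 0.21 and 0.16 against 1.58, 1.43, 1.68 and 1.75 in knockout and 1.21, 1.14, 1.11 and 0.69 against 1.92, 1.94, 2.17 and 2.56 in wild type cells, a fall of 1.42 ± 0.16 and 1.11 ± 0.15.

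Counted over all 19 genes of the host class, 8 rose and 4 fell in knockout cells and 5 rose and 7 fell in wild type cells, so 63.2% were called in each genotype, against 51.9% of all tested probes in knockout and 53.6% in wild type cells. Without the 2 on the opposite strand from their microRNA gene, the 17 others gave 7 rises and 4 falls in knockout and 4 and 7 in wild type cells. The balance depended on scaling in wild type cells (3 rises and 8 falls after quantile normalisation) and less in knockout cells (7 and 4). Dubr, a long RNA known from mouse muscle differentiation whose interval holds Mir6363 on the other strand, had levels of 4.04, 3.93 and 3.93 with LPS against 1.63, 1.79, 1.85 and 1.54 untreated in knockout cells, and 4.2, 4.36, 4.24 and 3.68 against 1.14, 1.97, 1.93 and 2.08 in wild type cells, with every LPS-treated array above every untreated one (log2 response 2.27 ± 0.21 and 2.34 ± 0.20). Among hosts of small nucleolar RNAs, 2410006H16Rik, whose interval holds Snord49a, Snord49b and Snord65, fell most. Its levels were 1.57, 1.94 and 1.57 against 3.40, 3.56, 3.34 and 3.57 in knockout and 2.69, 2.58, 2.68 and 2.13 against 3.89, 4.47, 4.52 and 4.42 in wild type cells. The fall of 1.77 ± 0.18 and 1.81 ± 0.17 passed in both genotypes with a difference of 0.03 ± 0.24 between them (adjusted p = 0.95), and the knockout level was lower under both conditions.

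The Snhg genes did not move as one. Snhg17 rose by 1.04 ± 0.17 in knockout and 0.66 ± 0.16 in wild type cells, and Snhg10 (-1.34 and -1.05) and Snhg7 (-0.90 and -0.87) fell in both. Snhg6, host of Snord87, had values of 0.87 ± 0.19 and 0.75 ± 0.18, called as rises under the main scaling. Both calls were lost after quantile normalisation, after normexp and in the authors' deposited values (limma adjusted p up to 0.155 and 0.8), and the last of these gave -0.12 and normexp -0.18 in wild type cells, so its direction there depends on scaling. Snhg1, which holds 8 small nucleolar RNA genes, and Snhg16, host of Snord1a to Snord1c, rose in knockout cells (0.92 ± 0.18 and 0.79 ± 0.16), and their wild type values of 0.37 ± 0.17 and 0.29 ± 0.14 did not pass. Snhg12 fell in wild type cells (-0.80 ± 0.25), with 0.02 ± 0.27 in knockout cells. The differences of responses for Snhg1, Snhg16 and Snhg12 (0.55, 0.51 and 0.82) did not pass either (limma adjusted p = 0.227, 0.187 and 0.211).

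**Figure D3:**
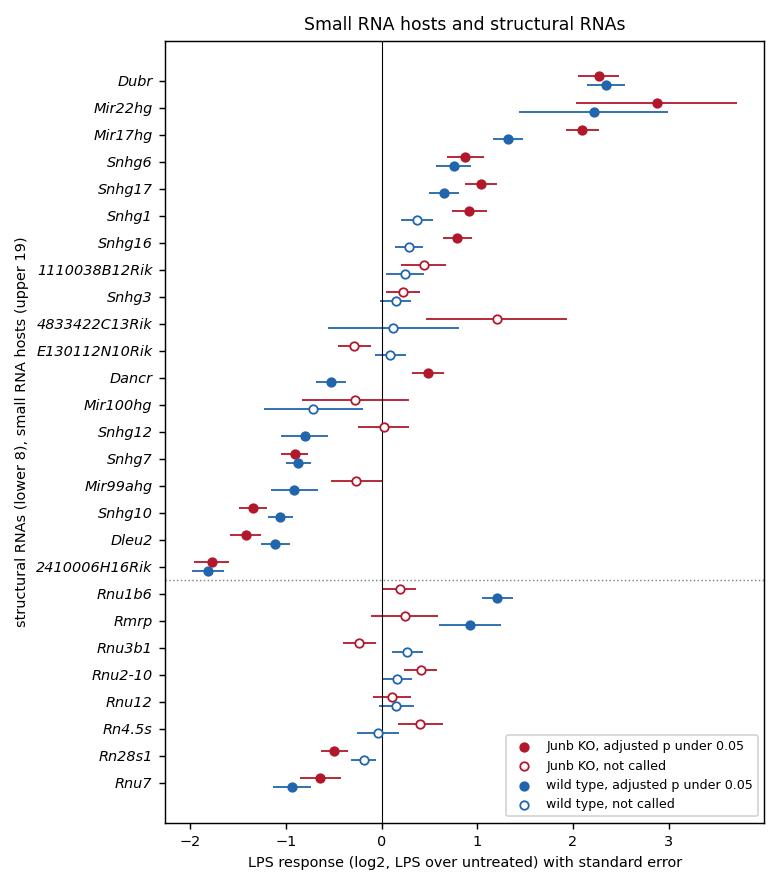
LPS response (log2 of LPS over untreated, with standard error) of the 19 genes of the host class, Dubr and E130112N10Rik included, and 8 structural RNAs in knockout (red) and wild type cells (blue). Filled points passed at an adjusted p under 0.05. Dubr, Mir22hg and Mir17hg lie furthest right and 2410006H16Rik furthest left. Dancr, filled in both genotypes, and Rnu1b6, filled in wild type cells only, are those whose difference of responses passed.

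Of the 8 structural RNAs, 0 rose and 2 fell in knockout cells, and 2 rose and 1 fell in wild type cells. Calls were thus made for 25% and 37.5% of them, against 51.9% and 53.6% of all tested probes. Rnu7, the U7 RNA that trims histone messenger RNAs, fell by 0.64 ± 0.21 in knockout and 0.94 ± 0.20 in wild type cells, and the knockout call was lost in 5 of 27 alternatives (highest adjusted p = 0.107). Rnu1b6, a U1 RNA of the spliceosome, stood at 2.22, 2.38 and 1.76 with LPS against 1.99, 1.89, 2.0 and 1.85 untreated in knockout cells, and at 2.27, 2.21, 1.95 and 2.23 against 1.05, 0.79, 0.66 and 1.33 in wild type cells. Only the untreated wild type arrays were low, and the rise of 1.21 ± 0.16 passed in wild type cells. Rmrp, the RNA of the enzyme RNase MRP, rose in wild type cells by 0.93 ± 0.32, a call lost in 8 of 27 alternatives (highest adjusted p = 0.102). Rn28s1, the large ribosomal RNA, had levels of 6.13, 6.15 and 5.70 against 6.55, 6.41, 6.57 and 6.42 in knockout and 5.10, 5.10, 5.22 and 5.18 against 5.11, 5.30, 5.28 and 5.65 in wild type cells, with a called fall of 0.49 ± 0.14 in knockout cells and a wild type value of -0.19 ± 0.13 that did not pass. For Rnu12, Rnu2-10, Rnu3b1 and Rn4.5s no LPS response was called in either genotype, with values between -0.23 and 0.41. These RNAs lack a regular poly(A) tail, so their signals also depend on priming, whose part was not tested.

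Among the 13 antisense and opposite-strand RNAs, 2 rose and 2 fell in knockout cells, and 4 rose and 3 fell in wild type cells. Calls were thus made for 30.8% and 53.8% of them, against 51.9% and 53.6% of all tested probes. Il1bos overlaps the cytokine gene Il1b on the other strand. Its levels were 1.07, 1.26 and 0.88 with LPS against -3.11, -3.40, -3.42 and -1.47 untreated in knockout cells, and 0.77, 0.71, 0.72 and -0.16 against -1.31, -3.01, -2.23 and -2.54 in wild type cells. The groups stood apart, with log2 responses of 3.92 ± 0.47 and 2.78 ± 0.43, while Il1b itself rose by 4.97 and 5.54. Has2os, read from the strand opposite the hyaluronan synthase gene Has2, gave -2.61, -2.38 and -2.90 against -1.84, -2.02, -1.89 and -1.75 in knockout and -3.08, -3.86, -3.00 and -2.03 against 0.65, 0.09, -0.17 and -1.35 in wild type cells. The wild type fall of 2.80 ± 0.39 passed and the knockout value of -0.76 ± 0.43 did not, and the difference of responses, 2.04 ± 0.58, missed the threshold (limma adjusted p = 0.0547). Map2k3os rose by 1.28 ± 0.19 and 0.70 ± 0.18, and Stk35os1 and Zbtb11os1 fell in both genotypes.

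Neighbouring coding genes were read from the gene table for the 131 long RNAs, hosts and antisense RNAs, and 106 had a measured neighbour, 54 of them overlapping. Across those pairs the LPS responses correlated with Pearson 0.353 and Spearman 0.262 in knockout cells and 0.385 and 0.335 in wild type cells, as a description across genes. Both partners were called in 35 pairs in knockout cells, of which 14 rose together, 10 fell together and 11 moved oppositely. In wild type cells there were 46 such pairs, with 17, 12 and 17. Calls were common among single genes. In knockout cells 57.3% of the 131 RNAs and 51.9% of all tested probes were called, and in wild type cells 62.6% and 53.6%. Pairs of genes that are not neighbours were not counted, so these counts do not show a link between neighbours. Morrbid rose beside Bcl2l11, which rose by 2.59 in knockout and 3.21 in wild type cells. AI504432 rose beside the potassium channel gene Kcna3 (2.90 and 4.29). 5031434O11Rik fell with the overlapping methyltransferase gene Setd7 (-3.22 and -3.02), and 9330151L19Rik (-2.02 and -1.90) with Dnaaf2 (-2.11 and -2.31). Dleu2 fell while the overlapping ubiquitin ligase gene Trim13 rose by 2.54 and 1.79. Where genes overlap, a probe placed on shared sequence could read both, which was not tested because probe sequences were not used here.

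Of the 69 pseudogenes, 26 rose and 9 fell in knockout cells and 22 rose and 10 fell in wild type cells under the main scaling. Rises made up 37.7% in knockout and 31.9% in wild type cells, against 31.2% and 33.9% of all tested probes. Falls made up 13% and 14.5%, against 20.7% and 19.7%. After quantile normalisation the counts were 14 and 19 in knockout and 11 and 18 in wild type cells, so the direction of the group depends on scaling. Tyms-ps, a pseudogene of the DNA precursor enzyme thymidylate synthase, gave 2.44, 2.3 and 2.13 with LPS against -0.37, -0.54, -0.37 and -0.43 untreated in knockout cells, and 1.93, 1.79, 1.99 and 1.40 against -1.38, -0.82, -0.84 and -0.76 in wild type cells (log2 response 2.71 ± 0.17 and 2.73 ± 0.16). Pisd-ps3 stood at -2.54, -3.1 and -2.37 against -0.01, 0.42, -0.15 and 0.16 in knockout and -1.49, -1.02, -1.39 and -1.36 against 0.93, 0.45, 0.41 and 0.53 in wild type cells and fell by 2.78 ± 0.20 and 1.89 ± 0.18. Nlrp1c-ps, from the family of inflammasome sensors, fell by 2.14 ± 0.23 and 1.66 ± 0.21. H2-K2, a pseudogene of the class I histocompatibility genes, had values of 0.80 ± 0.13 in wild type and 0.37 ± 0.14 in knockout cells, called as rises under the main scaling. Both calls were lost after quantile normalisation with or without normexp. The wild type limma adjusted p reached 0.348 there, and the knockout value turned to -0.30. Gm6524 gave 5.31, 5.27 and 5.19 against 3.45, 3.32, -4.0 and 3.12 in knockout cells, a response of 3.78 ± 1.34 that includes 1 low array and missed the threshold in 6 of 27 alternatives. A pseudogene probe may also read its parent or a sister copy, and these values are uncertain in that sense. Tyms-ps, Nlrp1c-ps and 9330151L19Rik, and Phtf1os, Gm5065 and Mm2pr below, were chosen after their values were seen.

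Without LPS, 31 genes differed between genotypes, 13 higher and 18 lower in the knockout (14.7%, against 13.5% of all tested probes, 8.63% higher and 4.91% lower, and 14.1% of those well above background on every array). Groups did not overlap for 47 genes (22.3%, against 19.4% of probes well above background on every array). Pvt1 was furthest up, with -0.78, -0.80, -0.81 and -1.09 in untreated knockout against -2.59, -2.41, -2.18 and -2.15 in untreated wild type cells and a log2 difference of 1.46 ± 0.13 (SE, n = 4 and 4, limma adjusted p = 6.14e-06). Rn28s1 (1.15 ± 0.13), Rnu1b6 (0.98 ± 0.16), 1810062O18Rik (0.87 ± 0.16) and Peg13 (0.86 ± 0.16) were higher as well. Has2os was lowest, at -1.84, -2.02, -1.89 and -1.75 against 0.65, 0.09, -0.17 and -1.35 (-1.68 ± 0.39). BC021767, a pseudogene, had -2.55, -2.29, -2.56 and -2.42 in knockout against -1.30, -0.97, -0.67 and -0.41 in wild type cells (-1.62 ± 0.17). Gm10941 (-1.10 ± 0.21), 2410006H16Rik (-0.86 ± 0.17) and Gm45351 (-0.82 ± 0.11) were also lower. In the authors' deposited values the differences of 1810062O18Rik and Gm45351 missed the threshold (limma adjusted p = 0.0594 and 0.558), and with the replicate number as a block that of Has2os did (0.0956). The pseudogenes among these 31 were 1 higher and 8 lower, which is 1.45% and 11.6% of all 69. The other long RNAs were 10 higher and 5 lower, which is 10.1% and 5.05% of all 99.

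With LPS, 49 genes differed, 19 higher and 30 lower in the knockout (23.2%, against 25.8% of all tested probes, 10.6% higher and 15.2% lower, and 26.1% of those well above background on every array), and groups did not overlap for 67 genes (31.8%, against 40.4%). Gm10638 was highest, with -0.07, -0.11 and -0.60 in LPS-treated knockout against -1.63, -1.81, -1.65 and -2.24 in LPS-treated wild type cells and a log2 difference of 1.57 ± 0.20 (SE, n = 3 and 4, limma adjusted p = 8.46e-05). Mexis (1.31 ± 0.25), Appbp2os (1.27 ± 0.30), 1700001L05Rik (1.26 ± 0.15) and Peg13 (1.13 ± 0.17) followed. Pisd-ps3 was lowest (-1.36 ± 0.20), followed by BC021767 (-1.22 ± 0.19, with knockout replicate 4 at the lower limit of the scale), AI504432 (-1.19 ± 0.36), Gm45351 (-1.13 ± 0.12) and 5430405H02Rik (-1.12 ± 0.18). Of the hosts, 6 were higher in LPS-treated knockout cells (Mir17hg, Snhg1, Snhg16, Snhg12, Mir99ahg and Dancr) and Dleu2 and 2410006H16Rik were lower. That is 31.6% higher and 10.5% lower of the 19 hosts, against 10.6% and 15.2% of all tested probes. Each of these 8 host calls was lost in 1 to 3 of 27 alternatives. With the replicate number as a block, 6 of them missed the threshold (Mir17hg, Snhg1, Snhg16, Dancr, Dleu2 and 2410006H16Rik), and without LPS-treated knockout replicate 3, Mir17hg, Snhg1 and Snhg12 did. In the authors' deposited values the hosts Mir17hg, Snhg12 and Dancr missed it, and of the 16 hosts held there 3 were higher and 2 lower. After quantile normalisation 7 of the 19 hosts were higher and 2 lower. The deposited differences of Gm45351 and Appbp2os missed the threshold as well (limma adjusted p = 0.932 and 0.0805). LPS-treated wild type replicate 1 of Gm45351 stands in those values at 7.46 and the others of its group between 9.03 and 10.18. AI504432 missed the threshold in 5 of 27 alternatives (highest adjusted p = 0.104). Under both conditions, 15 genes differed, 6 higher in knockout cells, among them Peg13, Pvt1 and Rn28s1, and 9 lower, among them BC021767, Gm45351 and 2410006H16Rik. The share of all tested probes that differed under both conditions was not computed.

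The LPS response itself differed between genotypes for 9 genes, 4 with a higher and 5 with a lower response in the knockout (4.27%, against 6.44% of all tested probes, 1.84% higher and 4.59% lower, and 5.87% of those well above background on every array). Gm10638 was called as a rise in knockout and a fall in wild type cells. Its untreated levels were -0.78, -0.79, -0.87 and -1.05 in knockout and -1.34, -0.90, -0.70 and -0.68 in wild type cells, beside the LPS values given above, and its responses of 0.61 ± 0.20 and -0.93 ± 0.18 differed by 1.54 ± 0.27 (limma adjusted p = 0.00393). Its knockout call was lost in 6 of 27 alternatives (highest adjusted p = 0.235), among them quantile normalisation and leaving out LPS-treated knockout replicate 2 or 3, and its wild type call in 1, the authors' deposited values (0.0624). Dancr, a long RNA that holds Snora26 and is known for keeping progenitor cells undifferentiated, stood at 0.80, 0.51 and 0.13 with LPS against -0.05, 0.06, 0.06 and -0.09 untreated in knockout cells, and at -0.17, -0.23, -0.04 and -0.53 against 0.03, 0.28, 0.26 and 0.57 in wild type cells. Its responses of 0.49 ± 0.17 and -0.53 ± 0.16 differed by 1.02 ± 0.23, and its knockout call was lost in 6 of 27 alternatives as well (highest adjusted p = 0.399). In the authors' deposited values LPS-treated knockout replicate 2 of Dancr stands at 7.47 and the other arrays between 9.02 and 10.20, and there the difference was -0.18, the knockout response -0.55 and the genotype difference with LPS -0.28. 4831440E17Rik (0.84 ± 0.22) and 1700001L05Rik (0.81 ± 0.21) were the other 2 with a higher response in the knockout.

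Trmt61b, a tRNA methyltransferase gene for which the table lists a noncoding type, had 1.09, 0.76 and 1.14 with LPS against -0.14, 0.15, -0.19 and -0.05 untreated in knockout cells, and 1.93, 1.99, 1.75 and 1.69 against -0.27, -0.04, -0.24 and -0.08 in wild type cells. It rose in both, by 1.06 ± 0.13 and 2.0 ± 0.12, and the smaller rise in knockout cells passed as a difference (-0.94 ± 0.18, limma adjusted p = 0.00631). Rnu1b6 (-1.02 ± 0.24), Gm12298 (-1.03 ± 0.25), Ppp4r1l-ps (-0.90 ± 0.24) and Pvt1 (-0.81 ± 0.19) were the other 4 with a lower response. For Rnu1b6 and Pvt1 the genotypes stood further apart untreated (0.98 and 1.46) than with LPS (-0.04 and 0.65). These calls were few and moved with the arrays used. Leaving out single arrays gave between 4 and 16, and with the replicate number as a block limma called 0, against 9 without it. In 27 alternatives Trmt61b and Rnu1b6 each missed once, Gm10638 missed in 2, Dancr in 4, Pvt1 in 5, and 4831440E17Rik, Ppp4r1l-ps, Gm12298 and 1700001L05Rik in 11 to 16.

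**Figure D4:**
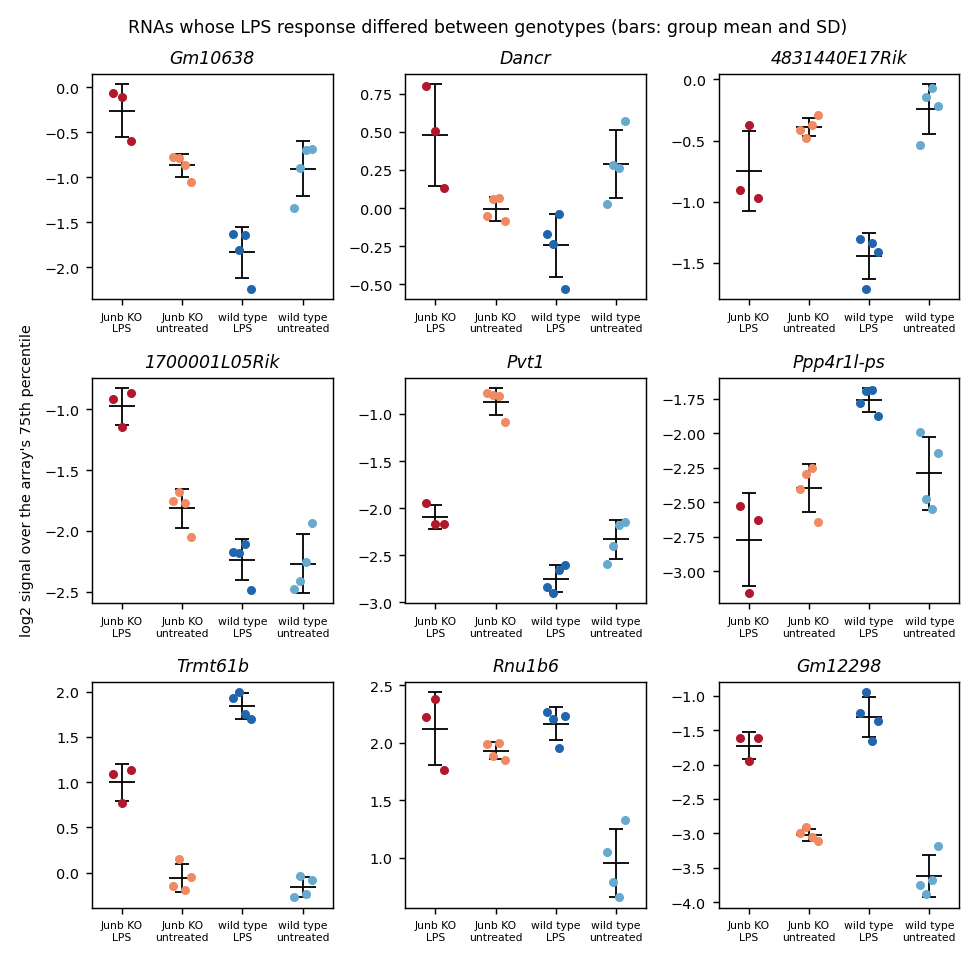
Levels (log2 signal over the array's 75th percentile) of the 9 RNAs whose LPS response differed between genotypes, on each array of LPS-treated and untreated knockout and LPS-treated and untreated wild type cells; points are arrays, bars the group mean and SD. Gm10638 and Dancr are higher with LPS in knockout and lower in wild type cells, Trmt61b is higher with LPS in both, and for Rnu1b6 only the untreated wild type arrays are low.

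Protein partners of these RNAs were taken from lists of known particles, whose counts hold for scaling to the 75th percentile and were not recomputed under other scalings. Of all tested probes, 31.2% rose and 20.7% fell in knockout cells and 33.9% and 19.7% in wild type cells. Of 12 proteins of small nucleolar RNA particles, 7 rose and 0 fell in knockout cells and 6 rose and 0 fell in wild type cells (median log2 response 0.88 and 0.43, beside 0.31 and 0.19 for all tested probes). With LPS, 5 of the 12 were higher in knockout than wild type cells, Fbl (0.61), Nop56 (0.57), Nop58 (0.89), Gar1 (0.60) and Nolc1 (0.86), and none were lower. In that comparison 10.6% of all tested probes were higher and 15.2% lower. Of 12 paraspeckle proteins, 8 rose and 0 fell in knockout and 10 rose and 0 fell in wild type cells. Of 13 measured genes of nonsense-mediated decay, which degrades many host transcripts, 7 rose and 0 fell in knockout and 6 rose and 1 fell in wild type cells. The microRNA processing list (12 genes) gave 2 rises and 6 falls in knockout and 4 and 6 in wild type cells, and the proteins of RNase P and MRP (9 measured) 3 and 4, and 2 and 5. In the 7SK particle (7 genes), which holds back transcription elongation, 2 rose and 1 fell in knockout cells and 3 rose and 1 fell in wild type cells; Hexim1 fell by 1.68 on the log2 scale in wild type cells and was higher in LPS-treated knockout than wild type cells (0.95).

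Some of the genes varied widely between wells. A within-group SD above 1 was found for 17 of the 211 genes (8.06%), against 4.64% of probes well above background on every array. They include Phtf1os (2.05), Gm5065 (1.99), Gm6524 (1.91), Mm2pr (1.91) and Mir22hg (1.20). On LPS-treated wild type replicate 4, LPS-treated knockout replicate 3 and untreated knockout replicate 4, 14 of the 17 stood above their group mean, and on LPS-treated wild type replicate 2 only 2 did. Phtf1os, for example, deviated from its group mean by 2.47 on untreated wild type replicate 2 and by -3.48 on replicate 4. Of the 17, LPS responses were called for 3 in knockout and 2 in wild type cells. Without them, 109 of the other 194 genes were called in knockout and 115 in wild type cells. Where a gene had several qualifying probes, which was the case for 27 genes, the probes gave opposite signs of the wild type response in 8, and the median range between probes was 0.27.

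**Figure D5:**
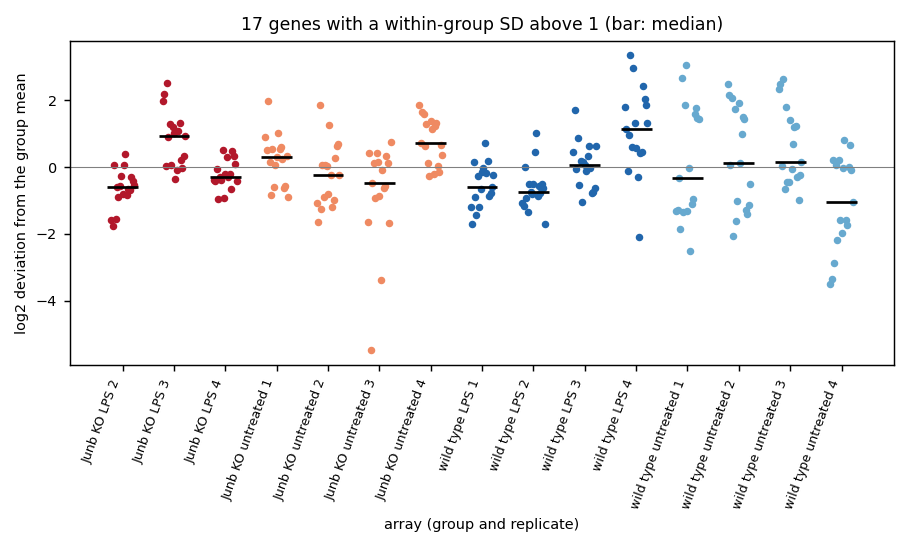
Deviation (log2) from the group mean on each array for the 17 genes with a within-group SD above 1; arrays run along the horizontal axis by group and replicate, points are genes and the black bars their medians. The points of LPS-treated wild type replicate 4 lie mostly above 0 and those of untreated wild type replicate 4 mostly below.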

How the data were processed

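RNA from 15 cultures was hybridised to 1-colour Agilent arrays. Per the file headers, the deposited intensity files come from Agilent Feature Extraction 10.7.3.1, which subtracted background and did not scale between arrays, on probes designed for mm9. The authors' deposited value table holds log2 values whose columns share nearly 1 distribution. Its background step, normalisation and exact scale are not given in the sources used here, and it served as an alternative.

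The processed signal was divided by each array's 75th percentile (482 to 1490), raised to a floor of 0.0436 of it (log2 -4.52) and log2-transformed. Control spots were left out and 4827 flagged spots were set to missing, 8 of them values of the described genes, which the fit then used with fewer arrays. No spot was saturated, and 51% to 63.2% were well above background. Probes that exceeded background clearly on 3 or more arrays in any group entered limma 3.58.1 (R 4.3.3) with 4 group means over all arrays, and p-values were adjusted by Benjamini-Hochberg over all of them at 0.05. The number of arrays limits the precision. The fit was tested on simulated data.

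Names, types and sequences come from RefSeq tables of GRCm38.p6. The genes and lists were chosen with earlier results of these data known. Named were genes in role lists (known long RNAs, hosts, structural RNAs), and up to 5 in each direction per comparison among called genes without overlap. Genes named outside this rule are stated. Alternatives were quantile normalisation, normexp on the median signal, the deposited table, other filters, 1 probe per symbol, the mean of probes, array weights, a variance trend, a replicate block and leaving out arrays.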

Additional observations from a re-analysis of the deposited data

Results flagged for a closer look

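In 224 groups of 4 arrays of the named genes, 21 held 1 array apart from the others by Dixon's criterion, 7 of them high. Chance alone does this in about 1 in 20 groups. LPS-treated wild type replicate 4 was the low array for the hosts Snhg3 (3.34, nearest 3.88), 1110038B12Rik (3.23, nearest 3.76), Mir99ahg (-0.10, nearest 0.80) and Snhg7 (-1.04, nearest -0.63), for the nuclear RNA Malat1 (1.92, nearest 2.69) and for the antisense RNA Il1bos (-0.16, nearest 0.71). The same array was high for 4833422C13Rik (0.73, nearest -1.72) and Kcnq1ot1 (-1.53, nearest -3.33). Untreated wild type replicate 1 was low for 2410006H16Rik (3.89), Dubr (1.14) and Gm6994 (-0.44, nearest 2.76), and high for Mir100hg (1.47, nearest -0.52). Untreated knockout replicate 3 was low for Mir22hg (-3.22, nearest 1.17), 4833422C13Rik (-3.56, nearest -1.56) and Gm6524 (-4.0, nearest 3.12). Untreated knockout replicate 4 was high for Il1bos (-1.47, nearest -3.11) and Six3os1 (-0.87, nearest -2.82) and low for Pvt1 (-1.09). The other arrays apart were untreated knockout replicate 2 for Snhg1 (2.42, nearest 2.12), LPS-treated wild type replicate 2 for Rnu3b1 (1.13, nearest 1.29) and untreated wild type replicate 3 for Snhg7 (0.24, nearest 0.13). These levels are log2 signal over the array's 75th percentile.

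The LPS response differed between genotypes for 9 genes by the test of the difference itself (knockout minus wild type response, log2). It was higher in the knockout for Gm10638 (1.54), Dancr (1.02), 4831440E17Rik (0.84) and 1700001L05Rik (0.81). It was lower for Gm12298 (-1.03), Rnu1b6 (-1.02), Trmt61b (-0.94), Ppp4r1l-ps (-0.90) and Pvt1 (-0.81).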

How the results depend on the processing

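The numbers of genes called for LPS stayed within 1.5 times under every alternative, at 77 to 129 in knockout cells (112 in the fit described) and 86 to 157 in wild type cells (117). Genotype calls moved more. The number of different responses (9) was 5 after quantile normalisation, 2 in the deposited table, 61 with array weights and 21 without the 3 arrays of largest spread. The number differing untreated (31) was 12 in the deposited table and 69 with array weights, and with LPS (49) it was 24 and 74. The deposited table holds 182 of the 211 genes, so its counts, among them the lowest LPS counts of 77 and 86, are out of 182. Leaving out single arrays gave 99 to 116 LPS calls in knockout cells, 108 to 121 in wild type cells, 4 to 16 different responses, 20 to 34 untreated differences and 32 to 54 with LPS. The lowest counts of genotype calls came without LPS-treated knockout replicate 3 (4 and 32) and without untreated knockout replicate 1 or 2 (20), and the 16 without LPS-treated wild type replicate 4. In these 2310 repeats over 154 named calls, 149 fell short of the threshold and 0 turned in sign.

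With the replicate number as a block, limma called 101 and 109 LPS responses, 0 different responses (27 at an unadjusted p under 0.05, against 36 without the block), 15 untreated differences and 26 with LPS. Deviations of same-numbered arrays correlated between -0.49 and 0.527, so the numbers do not show a pairing.

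Signs turned for H2-K2 in knockout cells (-0.2998 by quantile, -0.2982 by normexp) and Snhg6 in wild type cells (-0.1775 by normexp, -0.1173 in the deposited table). Dancr turned in the deposited table (knockout response -0.5506, difference of responses -0.1816, genotype difference with LPS -0.2844). The mean of probes turned Norad in knockout (0.5075) and Airn in wild type cells (0.1065). The cause was not tested. In the deposited table, 28 of 182 genes held an array more than 1 log2 unit from the scanner values, 27 of them exactly 1 array. Of all rows of that table, 16.9% held such an array, so this was not particular to these genes. Signals near background limit what can be said of genes close to the floor.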
